A study of Mus musculus with 4 samples.

Results

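NAD is the electron carrier of oxidative metabolism and the substrate of enzymes that cleave it, and 10 genes of its synthesis and consumption were followed across the cells of the mouse small-intestinal epithelial layer. The genes were chosen by symbol (Nampt, Naprt, Nmnat1, Nmrk1, Nadsyn1, Nnmt, Sirt3, Cd38, Bst1 and Parp1), and all 10 were found among 32285 genes in the deposited table of UMIs, the molecular tags that mark single mRNA molecules. Male C57BL/6J mice received high-fat feed plus l-NAME, which blocks nitric oxide synthases, from 8 weeks of age for 7 weeks and were 15 weeks old at sampling. In the IPA group the diet held 562.5 mg/kg of indole-3-propionic acid, a tryptophan metabolite made by gut bacteria, and in the con group it held none. Both groups carried the high-fat diet and l-NAME, and no group without them was analysed here. Each group had 2 samples, each pooled from 2 mice. The layer was stripped from jejunum and ileum after the Peyer's patches were cut away, and cells were sorted only for exclusion of the dye DAPI.

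Cells refill NAD by several routes. Nampt, the rate-limiting enzyme of salvage, turns nicotinamide into nicotinamide mononucleotide. Naprt starts the Preiss-Handler route from nicotinic acid, which Nadsyn1 ends by amidation. Nmrk1 phosphorylates the vitamin nicotinamide riboside, and Nmnat1 is the nuclear enzyme that joins the mononucleotides to adenylate. On the consuming side, Sirt3 is a mitochondrial deacetylase, Cd38 and its paralog Bst1 are surface glycohydrolases and cyclases of NAD, and Parp1 builds poly-ADP-ribose at DNA breaks. Nnmt methylates nicotinamide and so removes it from salvage. In the intestine, dietary and microbial forms of the vitamin reach the epithelium first.

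Each barcode ends in a number from 1 to 4, which marks its library. Nothing in the labels or headers ties these numbers to the IPA and con samples, so no comparison between the diets was made, and each library's value is given without a group, a mean or a p-value. Of 44277 barcodes, 25788 passed the limits on UMIs, genes and mitochondrial share, with medians of 22601 to 27622 UMIs per cell. The libraries differed in make-up: immune cells were 456, 14, 1391 and 19 of the cells given a class in libraries 1 to 4, so immune classes rest on libraries 1 and 3. In the position score of enterocyte-like cells described further on, library 2 stood apart. Pairs of libraries shared 214 barcode sequences, 75 of them among passing cells. Classes were gated on marker genes, none of which was one of the 10, and they held 557 stem-like, 1431 cycling, 888 goblet-like, 83 Paneth-like, 237 enteroendocrine-like and 55 tuft-like cells, against 18511 enterocyte-like cells. Among immune classes 1442 cells were T-like, 26 were NK- and ILC1-like, 144 B-like, 134 plasma-like and 126 dendritic- or macrophage-like. The gate markers detected in the largest share of cells were, for example, Fabp2, Fabp1 and Apoa1 in enterocyte-like cells and Sct, Chgb and Cpe in enteroendocrine-like cells.

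Levels are given in CPM, the UMIs of a gene per 1000000 UMIs of the class in that library. A gene is called higher or lower in a class where it was past 2-fold from enterocyte-like cells of the same library in every library with at least 10 cells of the class, among genes averaging at least 5 CPM over both. This is a rule of size and not a test. Over 11 classes set against enterocyte-like cells, 94 pairs of gene and class could be judged, of which 15 were higher and 41 lower. Beside each count within a class stands the share of all genes called the same way, since the classes differ widely from enterocytes.

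**Figure D1:**
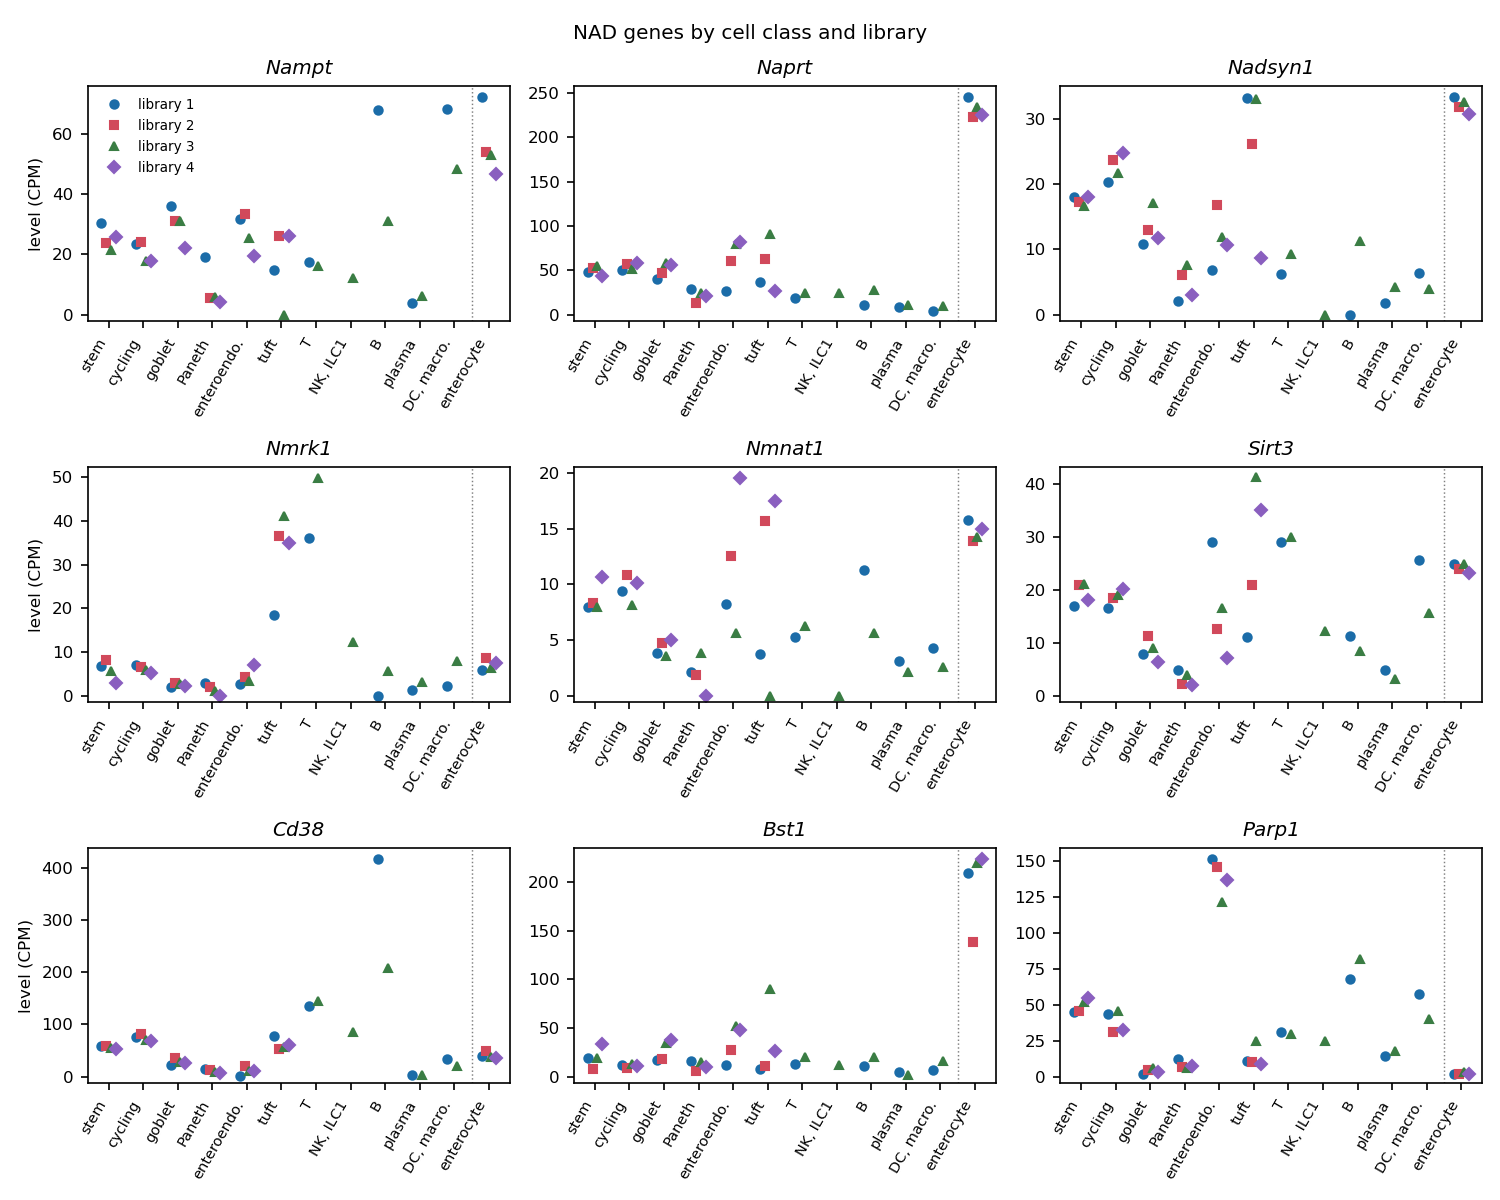
Level in CPM (linear axes from 0) of 9 NAD genes in 11 cell classes and, right of the dotted line, in enterocyte-like cells; each point is 1 library with at least 10 cells of the class. Naprt and Bst1 stood highest in enterocyte-like cells, Parp1 in enteroendocrine-like cells, Cd38 in B-like and T-like cells, and Nmrk1 in T-like and tuft-like cells.

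Naprt was the gene of synthesis that most set enterocyte-like cells apart. In libraries 1 to 4, the order kept throughout, stem-like cells had 48.56, 52.39, 54.69 and 43.86 CPM, against 245.9, 223.0, 234.6 and 224.9 CPM in enterocyte-like cells. Cycling cells had 50.65 to 58.37 CPM and goblet-like cells 39.95 to 57.79 CPM. None of these classes overlapped the enterocyte-like values, and they were lower by a median of 4.66-fold (stem-like), 4.22-fold (cycling) and 4.38-fold (goblet-like). Naprt was called lower in all 11 classes, down to 4.259 and 9.124 CPM in dendritic- and macrophage-like cells of libraries 1 and 3, and no class reached the lowest enterocyte-like value. Enterocyte-like cells held 91.85% to 97.19% of all Naprt UMIs of classed cells. With each cell thinned to 2000 UMIs, T-like cells of libraries 1 and 3 kept a Naprt UMI in 3.249% and 3.978% of cells, whereas enterocyte-like cells of the 4 libraries kept one in 42.2%, 37.66%, 40.33% and 37.04%. Without thinning, 6.803% and 9.131% of T-like and 90.9% to 96.21% of enterocyte-like cells had one. Thinning left out 17 and 58 T-like and 111, 172, 250 and 50 enterocyte-like cells that were shallower than 2000 UMIs.

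RNA freed from broken enterocytes can enter other droplets, and its amount was gauged from Fabp1, an abundant fatty acid binding protein of enterocytes. Stem-like cells held Fabp1 at 9.103% to 12.4% of the enterocyte-like level, and cycling cells at 10.85% to 14.42%. If all Fabp1 there were free RNA, Naprt at the same ratio would give less than the level seen, which was 1.88 to 2.56 times as high in stem-like, 1.56 to 1.92 times in cycling and 1.45 to 2.04 times in goblet-like cells. In dendritic- and macrophage-like cells Naprt was at 0.868 and 1.44 times that level, and in tuft-like cells at 0.498, 0.932, 1.03 and 0.404 times. Expression in these 2 classes was therefore not separable from free RNA. Paneth-like cells were at 1.1, 1.19, 3.45 and 1.74 times that level. Whether the cells of these classes transcribe Fabp1 themselves was not tested. Fabp1 was also a gate marker of enterocyte-like cells, so its ratio between classes is partly set by the gate.

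Nadsyn1, the last enzyme of the same route, was spread more evenly. Stem-like cells had 18.0, 17.31, 16.68 and 18.0 CPM, cycling cells 20.35, 23.72, 21.74 and 24.78 CPM, and enterocyte-like cells 33.33, 31.85, 32.48 and 30.67 CPM. The groups did not overlap, but the differences stayed within 2-fold. Nadsyn1 was called lower in T-like cells at 6.162 and 9.248 CPM, in dendritic- and macrophage-like cells at 6.389 and 3.91 CPM, and in Paneth-like and plasma-like cells. In tuft-like cells its 8.733 to 33.22 CPM overlapped the enterocyte-like range, on 19 UMIs in all.

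Nampt was called lower in cycling cells, at 23.43, 24.0, 17.65 and 17.62 CPM, against 72.26, 54.01, 52.9 and 46.77 CPM in enterocyte-like cells, by a median of 2.82-fold. Stem-like cells had 30.56, 23.71, 21.33 and 25.87 CPM, whose median fold below enterocyte-like cells was 2.32 but which did not pass 2-fold in library 4. Dendritic- and macrophage-like cells, at 68.15 and 48.23 CPM, overlapped the enterocyte-like cells, while T-like cells, at 17.6 and 16.13 CPM, were called lower. Among enterocyte-like cells Nampt was highest in library 1 and lowest in library 4, by a ratio of 1.54. The median gene had a ratio of 1.23, and 88.2% of genes had a smaller one than Nampt.

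Nmrk1 was called higher in T-like and tuft-like cells alone. T-like cells had 36.09 CPM in library 1 and 49.9 in library 3, against 5.864 and 6.337 CPM in the enterocyte-like class there, a median of 6.96-fold higher. Tuft-like cells, the chemosensory cells of the epithelium, had 18.45, 36.51, 41.17 and 34.93 CPM, against 5.864, 8.562, 6.337 and 7.493 CPM in enterocyte-like cells. The tuft-like values did not overlap the enterocyte-like ones and gave a median of 4.46-fold, but they rest on 4 to 7 UMIs a library. After thinning to 2000 UMIs, 6.137% and 8.511% of T-like cells kept a Nmrk1 UMI, against 1.299% and 1.185% of enterocyte-like cells. Without thinning the shares were 12.59% and 16.86% of T-like cells, against 12.48% and 13.76% of the deeper enterocyte-like cells. T-like cells supplied 4.718% of the classed Nmrk1 UMIs in library 1 and 23.51% in library 3.

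Of the T-like cells, 155 of 294 in library 1 and 600 of 1139 in library 3 carried Trdc, the constant chain of the gamma-delta receptor, a split chosen after the T-like values were seen. Trdc-positive cells had 41.15 and 55.59 CPM of Nmrk1 in libraries 1 and 3, on 25 and 144 UMIs. Cells with Cd8b1, a chain of conventional CD8 T cells, had 0 and 3 UMIs, at levels of 0 and 14.79 CPM. Their counting intervals reached 36.48 and 43.22 CPM, above the lower bound of 26.63 CPM in Trdc-positive cells of library 1 and near that of 46.88 CPM in library 3. The difference was not called, and 0 of the 9 genes was called in either direction between these subsets, where 0.792% of all genes were called higher and 2.52% lower.

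Nmnat1 and Sirt3 were even across libraries in enterocyte-like cells. Both were called lower in goblet-like cells, where Nmnat1 was at 3.538 to 5.015 CPM and Sirt3 at 6.269 to 11.15 CPM. The Sirt3 call was lost when mitochondrial and gate genes were left out of the total, at a median log2 difference of -1.18. Stem-like cells had 7.963 to 10.68 CPM of Nmnat1 and 16.85 to 21.03 CPM of Sirt3, and neither was called. Enterocyte-like cells had 15.75, 13.89, 14.26 and 14.96 CPM of Nmnat1 and 24.83, 23.85, 24.74 and 23.17 CPM of Sirt3. Their ratios between the highest and lowest library, 1.13 and 1.07, were below that of the median gene. Sirt3 in T-like cells, at 29.05 and 29.9 CPM, was just above the enterocyte-like range, by 1.19-fold at the median, and was not called.

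Parp1 showed the largest difference from enterocyte-like cells of all 94 pairs of gene and class. Enteroendocrine-like cells, the hormone-secreting cells of the epithelium, had 151.7, 146.2, 121.3 and 136.9 CPM, against 1.564, 1.793, 3.075 and 1.881 CPM in enterocyte-like cells. Every enteroendocrine-like value was above every value of any other class, and the median fold over enterocyte-like cells was 77.1. B-like cells followed at 67.76 and 81.67 CPM, then stem-like cells at 45.13, 45.99, 52.13 and 54.55 CPM. Stem-like cells overlapped dendritic- and macrophage-like cells, at 57.5 and 40.41 CPM, which in turn overlapped cycling cells, at 43.51, 30.88, 45.35 and 32.18 CPM. Stem-like cells exceeded enterocyte-like cells by a median of 27.2-fold and cycling cells did so by 17.2-fold. Goblet-like cells, at 2.123 to 5.7 CPM, were near the enterocyte-like level. Parp1 was called higher in 10 of 11 classes and could not be judged in goblet-like cells, where the mean was under 5 CPM. The call in Paneth-like cells was lost under 4 alternatives, and that in NK- and ILC1-like cells rests on 2 UMIs in 19 cells of library 3. The call in tuft-like cells rests on 3, 2, 3 and 1 UMIs. The counting intervals of tuft-like cells in libraries 2 and 4, and of NK- and ILC1-like cells, included the enterocyte-like level of the same library.

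Free enterocyte RNA at the Fabp1 ratio would give 188 to 3330 times less Parp1 than was seen in enteroendocrine-like cells. Thinned to 2000 UMIs, 29.79%, 25.81%, 21.1% and 15.38% of enteroendocrine-like cells kept a Parp1 UMI, against 0.2599%, 0.4196%, 0.5775% and 0.3426% of enterocyte-like cells. Without thinning the shares were 47.83% to 62.5% of enteroendocrine-like and 3.722% to 6.723% of enterocyte-like cells, and thinning left out 1, 3, 6 and 1 enteroendocrine-like cells. Enteroendocrine-like cells are few, so most Parp1 molecules lay elsewhere: they supplied 5.728% to 11.33% of the classed Parp1 UMIs, against 37.59% to 54.34% from cycling cells.

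Within enteroendocrine-like cells Parp1 was highest in those with Tph1, the enzyme of serotonin synthesis that marks enterochromaffin cells. Cells with a Tph1 UMI had 317.7, 260.2, 201.1 and 215.8 CPM, against 58.19, 53.15, 62.14 and 81.65 CPM in those without. The groups did not overlap, and the fold was 2.64 to 5.46, with a median of 3.98. Their depth was alike, at medians of 10449 to 12918 UMIs in cells with Tph1 and 11474 to 16139 in cells without. In each library the cells without Tph1 were above stem-like cells, with counting intervals that overlapped. The split was chosen after the class values were seen, and rests on 19, 15, 45 and 15 cells with Tph1. Of the 9 genes, only Parp1 was called between the 2 sets, where 0.918% of all genes were called higher and 0.705% lower.

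**Figure D2:**
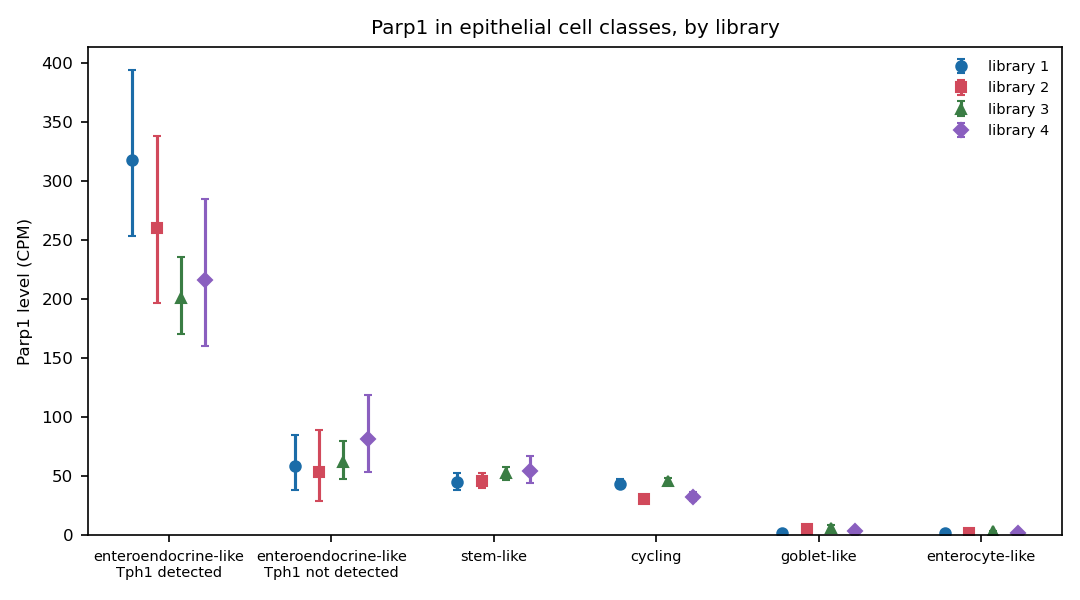
Parp1 level in CPM (linear axis from 0) by library in enteroendocrine-like cells with and without a Tph1 UMI and in 4 further epithelial classes; bars are exact Poisson 95% intervals, which cover counting error only. Cells with Tph1 were at 201.1 to 317.7 CPM, cells without at 53.15 to 81.65 CPM, and goblet-like and enterocyte-like cells below 6 CPM.

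The sequence before the start of Parp1 is shown beside that of Nadsyn1, because the level of Parp1 differed far more between epithelial classes than that of Nadsyn1. Both are RefSeq sequences of GRCm38.p6, the 250 bases before the start site, read 5′ to 3′ along the gene, with every CG pair in capitals. Parp1 lies on chr1:180568641-180568890 (plus strand) and Nadsyn1 on chr7:143822853-143823102 (minus strand).
Parp1: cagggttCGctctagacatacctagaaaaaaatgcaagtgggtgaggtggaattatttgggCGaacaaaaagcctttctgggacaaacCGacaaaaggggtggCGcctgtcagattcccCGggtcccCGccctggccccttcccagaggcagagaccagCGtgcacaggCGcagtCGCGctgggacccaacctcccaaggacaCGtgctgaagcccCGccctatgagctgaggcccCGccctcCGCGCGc
Nadsyn1: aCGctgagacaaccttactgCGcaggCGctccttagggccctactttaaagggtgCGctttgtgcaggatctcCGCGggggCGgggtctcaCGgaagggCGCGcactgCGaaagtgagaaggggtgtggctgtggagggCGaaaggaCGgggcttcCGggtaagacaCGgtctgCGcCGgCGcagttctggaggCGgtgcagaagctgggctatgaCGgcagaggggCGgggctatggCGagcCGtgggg

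Both are rich in CG pairs, with 16 in the Parp1 and 23 in the Nadsyn1 stretch. In the table's windows of 300 bases, which add 50 bases after the start, a sequence was found for 7 of the 10 genes. Nampt had 36 CG pairs, Nmnat1 28, Nadsyn1 27, Nmrk1 23 and Parp1 20, and the starts of Sirt3 had 23 and 24. Cd38 had 1, and 5.43% of 32851 promoters held fewer, the median promoter having 7. The window of Cd38, 43868559 to 43868858, lies wholly inside the gene of the GENCODE M21 annotation, which begins at 43868553. So do the windows of Nampt and of the Sirt3 start with 24. Their counts therefore need not describe the sequence before the GENCODE start. The E-box CACGTG, which reads the same on both strands and is a known site of circadian clock factors, was found in the Parp1 window alone among the 7, 49 bases before the start. It occurred in 7.15% of all promoters. These matches describe the letters and not binding.

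Cd38 was led by lymphocytes. B-like cells had 417.8 and 208.4 CPM in libraries 1 and 3 and T-like cells 135.6 and 145.6 CPM, against 39.27 and 37.13 CPM in enterocyte-like cells. The 3 sets of values did not overlap, and the median fold over enterocyte-like cells was 7.73 for B-like and 3.68 for T-like cells. Thinned to 2000 UMIs, 54.55% and 29.09% of B-like and 25.63% and 24.79% of T-like cells kept a Cd38 UMI, whereas 5.71% to 8.456% of enterocyte-like cells did over the 4 libraries. Without thinning the shares were 68.0% and 46.02% of B-like, 40.14% and 40.91% of T-like and 45.23% to 60.43% of enterocyte-like cells, which are deeper. Plasma-like cells, the antibody-secreting descendants of B cells, had 2.212 and 3.117 CPM.

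Within the epithelium no class was called higher for Cd38, but cycling, stem-like and tuft-like cells had larger values than enterocyte-like cells. Cycling cells had 67.77 to 82.59 CPM and stem-like cells 53.42 to 59.41 CPM, while enterocyte-like cells had 39.27, 49.54, 37.13 and 35.01 CPM. The values did not overlap, but the median folds of 1.91 and 1.51 stayed under 2. Tuft-like cells, at 77.5, 52.16, 57.63 and 61.13 CPM, were also above the enterocyte-like range, by a median of 1.65-fold, on 7 to 21 UMIs a library. Enteroendocrine-like cells were called lower, at 1.379, 20.89, 11.33 and 10.67 CPM, on 1 to 20 UMIs a library. Passing cells that met no gate, 320, 1001, 359 and 313 in number, had 126.5, 109.5, 105.7 and 96.07 CPM, above every gated epithelial class.

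Bst1, by contrast, was highest in enterocyte-like cells. Stem-like cells had 19.42, 7.349, 18.78 and 33.18 CPM and cycling cells 8.929 to 13.26 CPM, against 209.7, 138.3, 219.9 and 224.2 CPM in enterocyte-like cells. It was called lower in all 11 classes, by a median of 11.2-fold in stem-like and 17.3-fold in cycling cells. These levels were close to what free enterocyte RNA at the Fabp1 ratio would give, being 0.579 to 1.43 times that amount in stem-like, 0.928 to 1.18 times in goblet-like and 0.345 to 0.509 times in cycling cells. Bst1 in these classes could not be told from free RNA. Enterocyte-like cells held 96.23% to 98.86% of the classed Bst1 UMIs.

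Bst1 and Cd38 are neighbours in the genome. In GENCODE M21, on the GRCm38 build, Bst1 lies on chromosome 5 from 43818885 to 43843986 and Cd38 from 43868553 to 43912375, both on the plus strand, with 24566 bases and 0 annotated genes between them. Their levels had a Pearson correlation of log2(CPM + 1) of 0.138 over 37 sums of class and library, which share libraries, so that this is a description only. In the same annotation Naprt lies on chromosome 15 from 75890956 to 75894481 (minus strand), Nampt on chromosome 12 from 32819545 to 32853349 (plus strand), Nmrk1 on chromosome 19 from 18631950 to 18652428 (plus strand) and Parp1 on chromosome 1 from 180568924 to 180601254 (plus strand).

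Nnmt was not detected in any class. It had 2 UMIs in all, both in library 3, in 2 cells without a gate that carried 4 and 6 of 6 stromal markers. In enterocyte-like cells 0 UMIs allow at most 0.0251, 0.0228, 0.0328 and 0.0226 CPM in libraries 1 to 4, taking 3 counts as the limit.

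Counted class by class, lower calls were as many as the higher ones or more in all 11 classes. In stem-like cells 1 of 9 genes judged was higher and 2 lower, where 28.6% of all genes were higher and 12.9% lower. Cycling cells had 1 higher and 3 lower of 9, where the shares of all genes were 31.0% and 11.8%. Goblet-like cells had 0 higher and 4 lower of 7 (all genes 8.88% and 15.1%). Enteroendocrine-like cells had 1 higher and 3 lower of 9 (all genes 27.2% and 6.14%), and tuft-like cells 2 and 2 of 9 (all genes 13.4% and 4.68%). The median log2 difference of the genes judged was -0.79 in stem-like, -0.50 in cycling, -1.55 in goblet-like, -1.12 in enteroendocrine-like and 0.20 in tuft-like cells. Over all genes judged it was 0.41, 0.50, -0.17, 0.64 and 0.54 in the same classes. The tuft-like median of 0.20 was the value of Nmnat1, on 1, 3, 0 and 2 UMIs in libraries 1 to 4. The 0 was set to 3, which raised that median, so its sign is not established. With mitochondrial and gate genes left out of the total, the goblet-like median over all genes turned to 0.16.

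In T-like cells 3 of 9 genes were higher and 5 lower, where 42.0% of all genes were higher and 20.1% lower. B-like cells had 2 higher (Cd38 and Parp1) and 2 lower of 8, where the shares of all genes were 30.4% and 11.2%. Dendritic- and macrophage-like cells had 1 higher and 4 lower of 9 (all genes 32.3% and 19.5%). NK- and ILC1-like cells, with 10 cells or more in library 3 alone, where there were 19, had 2 and 2 of 9 (all genes 47.5% and 10.4%). The median log2 difference over these 9, 0.18, was the value of Nadsyn1, which had 0 UMIs there and was set to 3. It therefore does not show a level above that of enterocyte-like cells. Paneth-like and plasma-like cells, which secrete abundant defence proteins and antibodies, each had 1 higher and 7 lower of 8, and 57.0% and 64.0% of all genes were lower there, with 3.44% and 6.67% higher. Without mitochondrial and gate genes in the total, the median of all genes moved by 1.23 log2 units in Paneth-like and 1.64 in plasma-like cells, and by at most 0.35 in the others, and 6 of the lower calls in these 2 classes were lost. Between cycling and stem-like cells 0 of 9 genes were called, where 2.35% of all genes were higher and 0.488% lower in cycling cells.

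Enterocytes change their work as they climb the villus, and a position score of 7 genes of the upper and 8 of the lower villus, none of them an NAD gene, ranked the enterocyte-like cells of each library in 5 equal parts. From the lower to the upper villus, Bst1 was at 79.58, 166.5, 271.0, 368.2 and 388.7 CPM in library 1 and at 54.6, 85.65, 114.6, 196.0 and 331.1 CPM in library 2. It was at 65.15, 170.4, 291.9, 390.1 and 383.4 CPM in library 3 and at 88.23, 139.5, 250.2, 341.4 and 414.3 CPM in library 4. The level was higher at each step in libraries 1, 2 and 4 and flat over the last step in library 3. Between the upper and the lower end the median fold was 5.36, the log2 difference running from 2.23 to 2.60 over libraries. Upper cells also had more Bst1 UMIs per cell, 4.334, 5.89, 4.644 and 6.374, against 2.959, 1.66, 2.404 and 2.569 in lower cells, although upper cells were shallower.

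Cd38 ran the opposite way. It was at 55.58, 43.32, 33.57, 22.87 and 11.01 CPM from lower to upper villus in library 1 and at 64.59, 51.01, 52.61, 42.33 and 26.32 CPM in library 2. Library 3 had 56.84, 40.17, 32.27, 19.33 and 8.861 CPM and library 4 had 50.36, 41.12, 32.38, 24.48 and 15.45 CPM. The upper end was lower than the lower end in every library, by a median of 4.06-fold, least so in library 2.

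**Figure D3:**
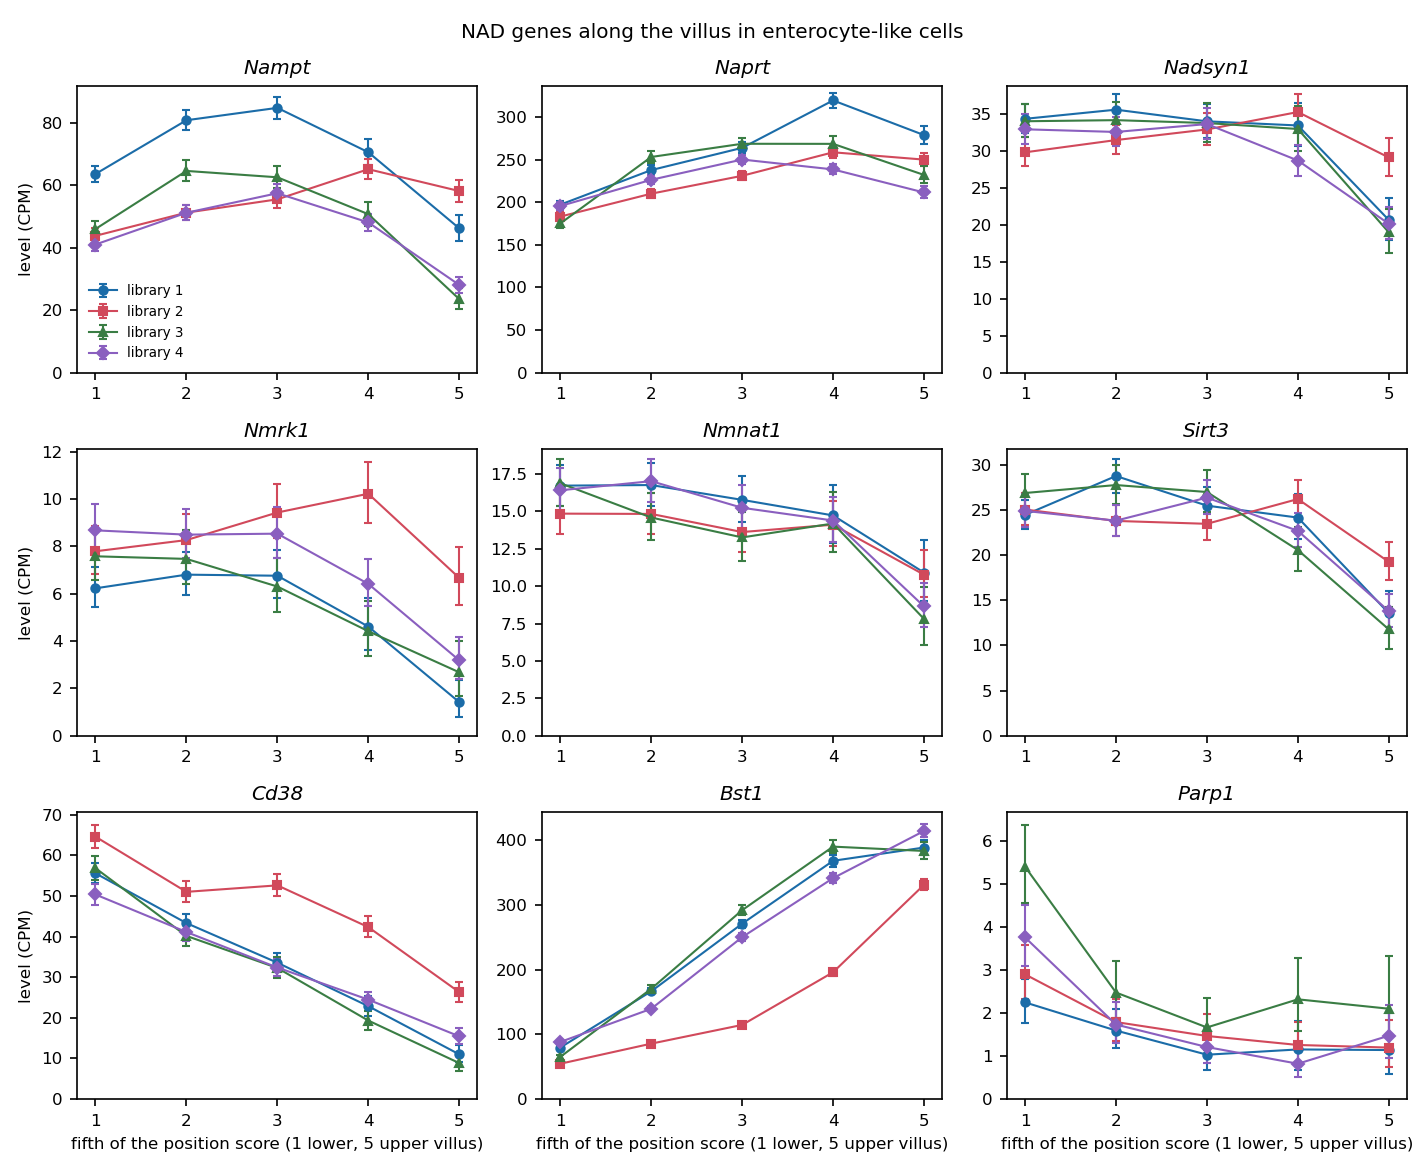
Level in CPM (linear axes from 0) of 9 NAD genes in enterocyte-like cells ranked in 5 equal parts per library, from lower (1) to upper villus (5); lines join the parts of a library and bars are exact Poisson 95% intervals. Bst1 lay between 54.6 and 88.23 CPM in part 1 and between 331.1 and 414.3 CPM in part 5, while Cd38 was lowest in part 5 of every library.

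Naprt was highest in the middle to upper villus, with peaks of 319.6 and 258.7 CPM in the 4th part in libraries 1 and 2 and of 268.7 and 250.2 CPM in the 3rd part in libraries 3 and 4. Its lowest part was the first in every library, at 175.1 to 197.2 CPM. Nampt peaked in the 2nd to 4th part, at 84.81, 65.16, 64.61 and 57.46 CPM, and its upper part, at 46.22, 58.16, 23.55 and 28.09 CPM, was below the lower part, at 63.63, 43.82, 46.01 and 41.04 CPM, in libraries 1, 3 and 4 but not in library 2. Nadsyn1 was nearly level over the first 4 parts, at 28.75 to 35.64 CPM, and stood at 20.69, 29.16, 19.01 and 20.17 CPM in the upper part.

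Sirt3 and Nmnat1 were also lowest in the upper part. Sirt3 stood there at 13.57, 19.25, 11.78 and 13.8 CPM, against 24.45, 25.04, 26.87 and 24.89 CPM in the lower part, and Nmnat1 at 10.91, 10.77, 7.812 and 8.646 CPM, against 14.85 to 16.88 CPM. Nmrk1 was at 1.423, 6.665, 2.682 and 3.189 CPM in the upper part, against 6.227, 7.791, 7.579 and 8.674 CPM in the lower part, with little difference in library 2. Of 8 genes judged, 1 was higher (Bst1) and 1 lower (Cd38) in the upper part, where 5.77% of all genes were higher and 10.5% lower. The median log2 difference was -0.75 over these 8 and -0.17 over all genes judged. Parp1 could not be judged at its low level, where the upper part had 1.139, 1.196, 2.099 and 1.472 CPM and the lower part 2.246, 2.897, 5.397 and 3.755 CPM.

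Depth moved with position. The upper part had medians of 9620, 19544, 10071.5 and 14373.5 UMIs per cell, against 36973, 29852, 35817 and 28276 in the lower part. Apoa4, a lipid-carrier gene that is part of the score, reached 55920, 20740, 54470 and 40350 CPM in the upper part, against 4956, 2493, 3569 and 4211 CPM in the lower part. The part of depth in the differences was not tested.

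The libraries differed in the score itself. Library 2 had a median of 0.3682 in its upper part, against 2.362 to 2.926 in the other libraries. Among the lower-villus genes of the score are Reg3b and Reg3g, antimicrobial lectins, and Reg3b differed between libraries at every part, in the middle one at 6271, 23460, 205.4 and 475.1 CPM. Without these 2 genes the median score over all enterocyte-like cells was 0.6023, -0.4097, 0.9824 and 0.5904, and with them -0.1334, -1.573, 1.013 and 0.5787. An equal score therefore need not mean an equal position. With cut points shared by all libraries and both genes left out of the score, a setting chosen after the data were seen, the upper part held 1293, 305, 1077 and 1028 cells and the lower part 795, 1815, 376 and 716. Bst1 then stood at 389.1, 379.6, 397.1 and 420.2 CPM in the upper part, against 46.68, 46.96, 24.78 and 41.66 CPM in the lower part, a median log2 difference of 3.20. In the middle part it was at 258.7, 245.1, 207.2 and 231.5 CPM. With Reg3b and Reg3g in the score the middle part had 280.4 and 312.9 CPM in libraries 1 and 2 but 131.2 and 153.9 CPM in libraries 3 and 4. The lower part went the other way, at 70.61, 79.71, 87.04 and 91.15 CPM with the 2 genes, a smaller spread than without them. What sets these spreads was not tested. Cd38 without the 2 genes was at 14.02, 15.93, 12.14 and 15.07 CPM in the upper part. It was at 57.17, 62.44, 66.63 and 54.59 CPM in the lower part and at 34.91 to 38.13 CPM in the middle. Nmrk1 was called lower in the upper part with shared cut points and the full score, and was not called once the 2 genes were left out.

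**Figure D4:**
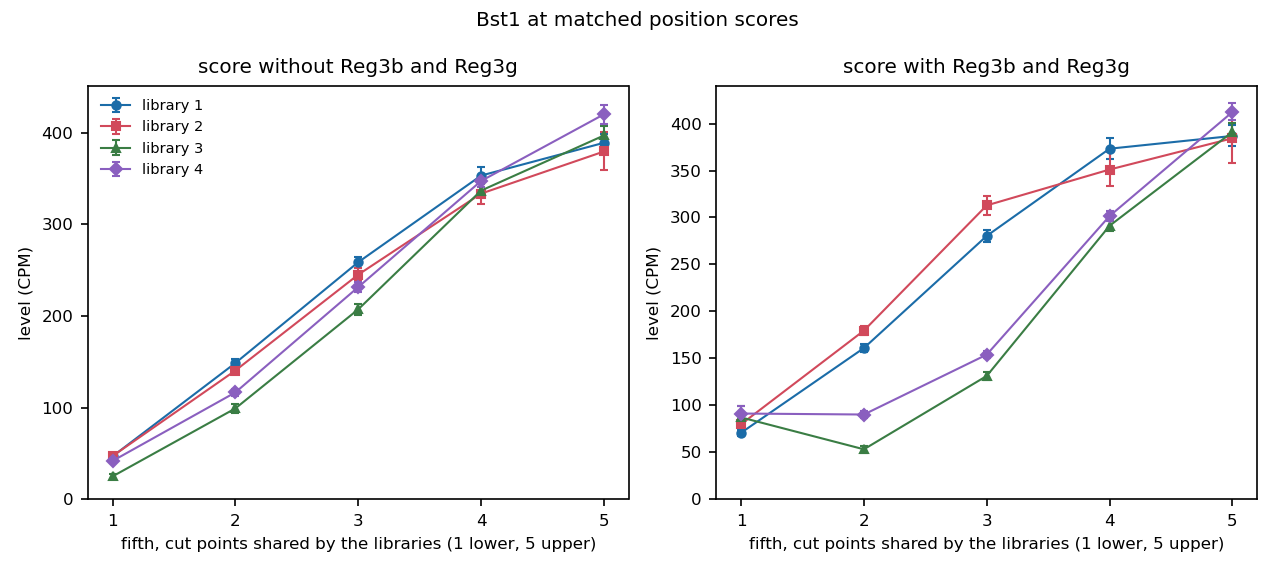
Bst1 level in CPM (linear axes from 0) in enterocyte-like cells at positions cut at the same scores in all 4 libraries, from lower (1) to upper villus (5), with the score without Reg3b and Reg3g on the left and with them on the right; bars are exact Poisson 95% intervals. In the middle part the libraries were at 207.2 to 258.7 CPM without the 2 genes and at 131.2 to 312.9 CPM with them.

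Between enterocyte-like cells with ileal genes and the rest, no NAD gene that could be judged was called, and Parp1 could not be judged. Enterocyte-like cells with the ileal bile acid genes Fabp6 and Slc10a2, 71, 189, 122 and 131 in number and chosen after the data were seen, were set against the remaining enterocyte-like cells. The remaining cells, 4658, 4749, 3418 and 5173, can also hold ileal cells, so jejunum and ileum as such were not compared. The ileal cells also had lower median position scores, at -1.866, -2.205, -0.4853 and -1.188, against -0.1064, -1.553, 1.081 and 0.6176 in the rest, so region and villus position were mixed. Nmnat1 was at 8.741, 5.57, 10.29 and 10.26 CPM in the ileal cells and at 15.87, 14.19, 14.39 and 15.07 CPM in the rest. Nmrk1 was at 9.769, 9.803, 14.75 and 8.397 CPM in the ileal cells and at 5.799, 8.518, 6.059 and 7.471 CPM in the rest. Neither passed 2-fold in every library, where 2.16% of all genes were higher and 2.87% lower.

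Between libraries, none of the 8 genes judged in enterocyte-like cells spread past 2-fold, where 3.83% of all genes did. Bst1 had a ratio of 1.62 between library 4 and library 2, Nmrk1 1.46, Cd38 1.41, Naprt 1.1 and Nadsyn1 1.09. Bst1 was lowest and Cd38 highest in library 2, which had the lowest median position score with and without Reg3b and Reg3g. In the other classes 2 of 9 genes judged spread past 2-fold in stem-like cells (Nmrk1 and Bst1), where 6.28% of all genes did, 1 of 6 in goblet-like cells (Bst1, all genes 11.3%), and 0 of 9 in cycling (2.01%) and in T-like cells (3.86%). In enteroendocrine-like cells 6 of 8 did, where 36.3% of all genes did, though Parp1 and Nampt did not. In Paneth-like cells, with 10 to 36 cells a library, 4 of 5 did, where the share of all genes was 34.4%. Many of these counts were small. In enteroendocrine-like cells Cd38 had 1 to 20, Nmnat1 6 to 11, Nadsyn1 5 to 21 and Sirt3 4 to 29 UMIs a library. Fabp1 there ran from 2.915% of the enterocyte-like level in library 1 to 22.69% in library 4. Nmrk1 in stem-like cells of library 4 had 5 UMIs.

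Over the 37 sums of class and library, the genes most like each NAD gene were sought among 10338 genes, as a description. Among the genes most like Naprt were Tkfc (Pearson correlation 0.964) and Dgat1 (0.956). Bst1 was most like the apolipoprotein genes Apoa4 (0.959), Apoa1 and Apoc3 (0.952 each), and Nadsyn1 most like Dhrs7b (0.928), Ptdss2 and Mpp5. Parp1 was most like Bex3 (0.925), Cd44 (0.891) and Psip1 (0.88), Sirt3 most like the mitochondrial genes Ndufa2 (0.897) and Atp5e (0.885), then Pigs, and Nampt most like Zfp410 (0.859), Fbxo38 and Nat2. Cd38 was most like Ormdl1 (0.843), Rara and 3110040N11Rik, and Nmrk1 most like Pigc (0.825), Auh and Osbpl3. Among the NAD genes themselves, Naprt correlated with Bst1 at 0.817 and with Nadsyn1 at 0.735. The sums share libraries and free enterocyte RNA. Apoa1 was also a gate marker of enterocyte-like cells, so its likeness to a gene high in that class is partly set by the gate.

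Some genes share bases with a neighbour, and the strand setting of the counting is not given in the sources used here. Naprt shares 277 bases with Eef1d on its own strand, whose level ran the other way, at medians of 411.0 CPM in cycling and 88.3 CPM in enterocyte-like cells. Bst1 shares 2754 bases with Fbxl5 on the opposite strand, with a correlation of 0.654 over the 37 sums, and Sirt3 shares 342 with Psmd13, with a correlation of 0.809. At its 3′ end, where such libraries read, Sirt3 shares 707 bases with Ric8a on the opposite strand, with a correlation of 0.473. Nmnat1 shares 6172 bases at its 3′ end with Tmem274, whose median was 0 CPM in enterocyte-like and in cycling cells. What share of the UMIs of Bst1 and Sirt3 could belong to these neighbours was not tested.

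The wider pathway was read from a list of 51 genes, of which 50 were found. UMIs count molecules and do not scale with transcript length. By this measure the highest members in enterocyte-like cells were Pnp, a nucleoside phosphorylase, at 308.7, 322.3, 296.9 and 322.2 CPM, and Enpp3, a surface nucleotide pyrophosphatase, at 213.0, 45.42, 218.1 and 131.4 CPM. Nadk, which makes NADP, and Slc25a51, the mitochondrial NAD carrier, followed at 71.55 to 79.44 CPM and 71.19 to 78.64 CPM, then the nuclear deacetylase gene Sirt7 at 48.6 to 55.11 CPM. This order is that of the means over libraries, and in library 2 Enpp3 was below the other 4.

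The mRNAs of de novo synthesis from tryptophan were called higher in different cell classes, and synthesis itself was not measured. Ido1, its first enzyme, was called higher in goblet-like cells, at 504.2, 246.9, 464.7 and 138.7 CPM, against 0.4182, 0.2507, 1.16 and 0.158 CPM in enterocyte-like cells. The later enzymes Kmo, Kynu and Haao were called higher in dendritic- and macrophage-like cells, where Kmo was at 78.8 and 129.0 CPM and Kynu at 89.44 and 65.17 CPM, and in B-like cells, where Haao was at 146.8 and 64.77 CPM. Enterocyte-like cells of libraries 1 and 3 had Kmo at 0.5521 and 0.5582 CPM. In B-like cells of library 1, with 88554 UMIs in all, Kmo at 33.88 and Kynu at 11.29 CPM rest on few UMIs. Qprt, of the same route, was called higher in NK- and ILC1-like cells alone, at 36.74 CPM in 19 cells of library 3. That is the level that 3 UMIs give in this class. Ido1 was called higher there too, at 12.25 CPM, below that level. Afmid, also of this route, was called higher in T-like cells, at 51.05 and 55.7 CPM, against 12.91 and 13.95 CPM in enterocyte-like cells. It was also called higher in NK- and ILC1-like cells and lower in Paneth-like and plasma-like cells. Slc12a8, reported as a transporter of nicotinamide mononucleotide, was also higher in goblet-like cells, at 252.1, 263.6, 281.9 and 253.5 CPM, against 5.154 to 6.357 CPM in enterocyte-like cells. In all, 2 of 29 pathway genes judged were higher and 5 lower in goblet-like cells, where 8.88% of all genes were higher and 15.1% lower.

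In stem-like cells 1 of 26 pathway genes was higher and 7 lower, where 28.6% of all genes were higher and 12.9% lower. The one higher was Parp2, the closest relative of Parp1, at 46.56, 38.88, 39.66 and 45.55 CPM, against at most 11.73 CPM in enterocyte-like cells of any library. In cycling cells 2 of 28 were higher (Parp2 and Slc12a8) and 7 lower (all genes 31.0% and 11.8%). In enteroendocrine-like cells, where Parp1 was highest, Parp2 was not called, at 19.3, 16.71, 15.3 and 12.45 CPM, and 5 of 30 pathway genes were higher (Nt5e, Slc12a8, Sirt4, Parp6 and Tnks2) and 2 lower (Pnp and Enpp3), where the shares of all genes were 27.2% and 6.14%. T-like cells had 13 of 31 higher and 7 lower, close to the shares of all genes, 42.0% and 20.1%. Among those higher were Nt5e, the nucleotidase CD73, at 147.9 and 142.6 CPM, and Art2b, an ADP-ribosyltransferase of T cells, at 49.29 and 51.62 CPM.

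Along the villus 4 of 27 pathway genes were higher in the upper part and 2 lower, where 5.77% of all genes were higher and 10.5% lower. Enpp3 was at 1208.0, 277.1, 1134.0 and 669.1 CPM in the upper and at 10.15, 2.131, 17.95 and 6.441 CPM in the lower part, and Nt5e at 250.0, 35.6, 347.6 and 123.4 CPM in the upper and 0.9951, 0.1998, 2.794 and 0.9386 CPM in the lower part. Both encode surface enzymes of nucleotide breakdown, as Bst1 does of NAD. Parp12 was at 114.4, 33.66, 78.94 and 52.61 CPM in the upper and at 30.59, 14.82, 15.69 and 13.72 CPM in the lower part, and Parp4 was the 4th higher gene. Slc12a8 and Sirt5, a mitochondrial relative of Sirt3, were lower in the upper part, Sirt5 at 1.993, 3.646, 1.866 and 3.25 CPM, against 7.762, 7.558, 9.34 and 8.674 CPM in the lower part.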

How the data were processed

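Single cells of the epithelial layer were assayed with droplet libraries. Per the labels' protocols, 3′ libraries with UMIs were made. The deposited matrix holds raw UMI counts, whole numbers with an integer field per its file header. The submitters' processing notes list Cell Ranger 6.1.1 and mm10. Which annotation was used is not given in the sources used here.

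Cells needed 500 UMIs, 250 genes and a mitochondrial share of at most 25% (6174, 7122, 6307 and 6185 in libraries 1 to 4). A cell entered a class when its marker genes passed a threshold per 10000 UMIs and a number of markers; thresholds were set after seeing the data. Cells passing no gate (1993) or 2 gates (153) were left out. The markers, the 10 genes and the pathway list were chosen with earlier results of these data known. All 10 genes are named. The pathway genes described are the 5 highest in enterocyte-like cells and a selection of those past 2-fold in every library. Others that were called, such as Slc5a8 and Parp8, are not described.

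UMIs were summed per class and library and divided by the class total (CPM). Intervals are exact Poisson or binomial 95% intervals and cover counting error only; UMIs of 1 droplet are not independent cells. With no map from libraries to samples, the edgeR tests planned for diet could not be run, and no p-value is given. For a call, a count under 3 in the lower group was set to 3, and a 0 was set to 3 in a printed fold. The procedure was tested on simulated counts. Doublets stayed in; their removal with Scrublet is an alternative. Python 3.11.15, numpy 2.4.6, scipy 1.17.1, pandas 2.3.3, scanpy 1.11.5 and matplotlib 3.10.9 were used. Gene positions are from GENCODE M21.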

Additional observations from a re-analysis of the deposited data

How the results depend on the processing

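No paired analysis was possible because no column or barcode number carries the replicate numbers of the labels; for the same reason the diet fits, their normalizations and their blocked form were not run. No called difference changed sign under any alternative run, but Sirt3 in tuft-like cells, not called at a median log2 difference of 0.20, was called lower at -1.165 with at least 20 cells, where library 1 alone was left. Of 94 pairs of gene and class, the 15 higher and 41 lower became 13 to 15 and 40 to 44 with 1 library left out in turn, and 12 to 17 and 39 to 48 over all alternatives. With a limit of 1.5-fold, 2 genes (Nampt and Bst1) spread between libraries in enterocyte-like cells, against 0 at 2-fold. With common cut points, 2 genes were lower in the upper villus, Nmrk1 beside Cd38, against 1; with Reg3b and Reg3g also left out of the score, chosen after seeing the data, it was 1 again. Of 59 calls, 51 were kept without mitochondrial and gate genes in the total, the losses being Sirt3 in goblet-like cells, Cd38 in NK- and ILC1-like cells and 6 lower calls in Paneth-like and plasma-like cells. With at least 20 cells a class 54 were kept. Without library 3, 55 were kept, since NK- and ILC1-like cells had too few cells elsewhere. Parp1 in Paneth-like cells was not called without library 1, with at most 15% mitochondrial UMIs, with doubled gates or with at least 20 cells. Scrublet marked 4, 1, 157 and 1 cells by its automatic threshold, under 0.5% in 3 libraries; removing the highest 370, 427, 378 and 371 scores kept all 59 calls. Tuft-like, NK- and ILC1-like and B-like values rest on few UMIs, and differences under 2-fold there were not detectable at this depth.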
